A study of Mus musculus with 6 samples.

Results

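The DNA replication machinery was described here as 50 genes whose proteins license origins, open and unwind DNA, copy it and supply deoxynucleotides, with Top2a added, and all 50 of the 50 listed symbols were found with a mean of at least 1 among the 15662 genes tested (23997 symbols in the table). The members were chosen by symbol, not by any measured value. Earlier results of these data were known when they were chosen. RNA came from bone marrow cells of the lineage-negative, Sca-1 and c-Kit positive gate (LSK), which holds hematopoietic stem cells and multipotent progenitors (HSPCs), of C57BL/6 mice aged 6 to 8 weeks under normal hematopoiesis. Libraries were made from 3 RNA preparations of wildtype mice and 3 of Mirc11-/- mice, which lack the cluster of the miRNAs named miR-23a, miR-27a and miR-24-2, while each preparation pooled 3 to 4 mice, so that a library is not one animal. Libraries are called wildtype 1 to 3 and Mirc11-/- 1 to 3 after their labels, and all 6 carry a single batch date. Expression is given as normalized counts, that is, reads assigned to a gene divided by a library size factor close to 1.

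The precursors of the deleted cluster were checked first. Across the 3 wildtype libraries, Mir23a, Mir27a and Mir24-2 had 51, 54 and 73 reads in total, and all 3 had 0 reads in every Mirc11-/- library. Between 15029379 and 17051541 reads fell in genes per library. The labels give the sort as Sca-1 positive, while a legend of the study writes it as Sca-1 negative. Ly6a, which encodes the Sca-1 antigen of the gate, reached 567 ± 131 normalized counts per kb of transcript in wildtype (mean ± SD, n = 3), below Kit at 1706 ± 82.4, Cd34 at 5101 ± 275 and the myeloid granule gene Mpo at 43291.5 ± 4729. Mirc11-/- 1 and 2 stood apart from the other 4 libraries: the summed level of 18 erythroid markers was 58585 and 55115 normalized counts in them, 26690.2 in Mirc11-/- 3 and 25364.5 to 34478 in wildtype, although the sort removed cells with the erythroid antigen Ter119. In bulk RNA, more cells of a type and more RNA per cell cannot be told apart.

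Replication begins in G1, when the origin recognition complex (ORC) with Cdc6 and Cdt1 loads the Mcm2 to Mcm7 ring onto DNA, and geminin (Gmnn) holds Cdt1 in check after S phase starts. The kinase Cdc7 with its activator Dbf4 then turns the ring into the active helicase together with Cdc45 and the GINS proteins, polymerase alpha with primase lays primers, polymerases delta and epsilon extend them on the Pcna clamp that replication factor C loads, and ribonucleotide reductase, thymidylate synthase and thymidine kinase supply precursors. Many of these genes are transcribed in late G1 and S phase under E2F factors, so their mRNA rises in cycling progenitors and is low in resting stem cells.

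No replication gene passed the test between the genotypes, while nearly all of them were high or low together in the same libraries within each genotype. In edgeR, DESeq2 and limma, 0 of 50 members had an adjusted p under 0.05, and 0 of 50 had an unadjusted limma p under 0.05. The smallest unadjusted limma p was 0.0567, of Pold1, the catalytic subunit of polymerase delta. For comparison, limma called 5 of all genes tested (0.0319%), edgeR 4 (0.0255%) and DESeq2 122 (0.779%), and the unadjusted limma p was under 0.05 with a higher level in Mirc11-/- in 4.15% and with a lower level in 4.09% of all genes. The median log2 fold change (Mirc11-/- minus wildtype) over the members was -0.011, beside 0.0025 over all genes, with 22 members above 0 and 28 below and a range of -0.26 for Pold1 to 0.29 for Orc5.

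The intervals say how large a change these 6 libraries leave possible. In 39 of 50 members the 95% interval of the log2 fold change lay between -0.5 and 0.5, against 48.4% of all genes tested. Of the 4420 genes with a mean of at least 1000, it lay there in 3839, so such intervals are not particular to the members. The lowest bound was -0.54 for Pold1 and the highest 0.75 for Rrm2, which correspond to folds of 0.69 and 1.68. The gap between the genotype means was below the pooled SD of the libraries in 45 of 50 members (90%), against 63.0% of all genes and 64.7% of those with a mean of at least 1000. In 0 of 50 did the 3 values of one genotype lie wholly above or below the 3 of the other, beside 6.42% of all genes wholly higher and 6.53% wholly lower in Mirc11-/-.

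**Figure D1:**
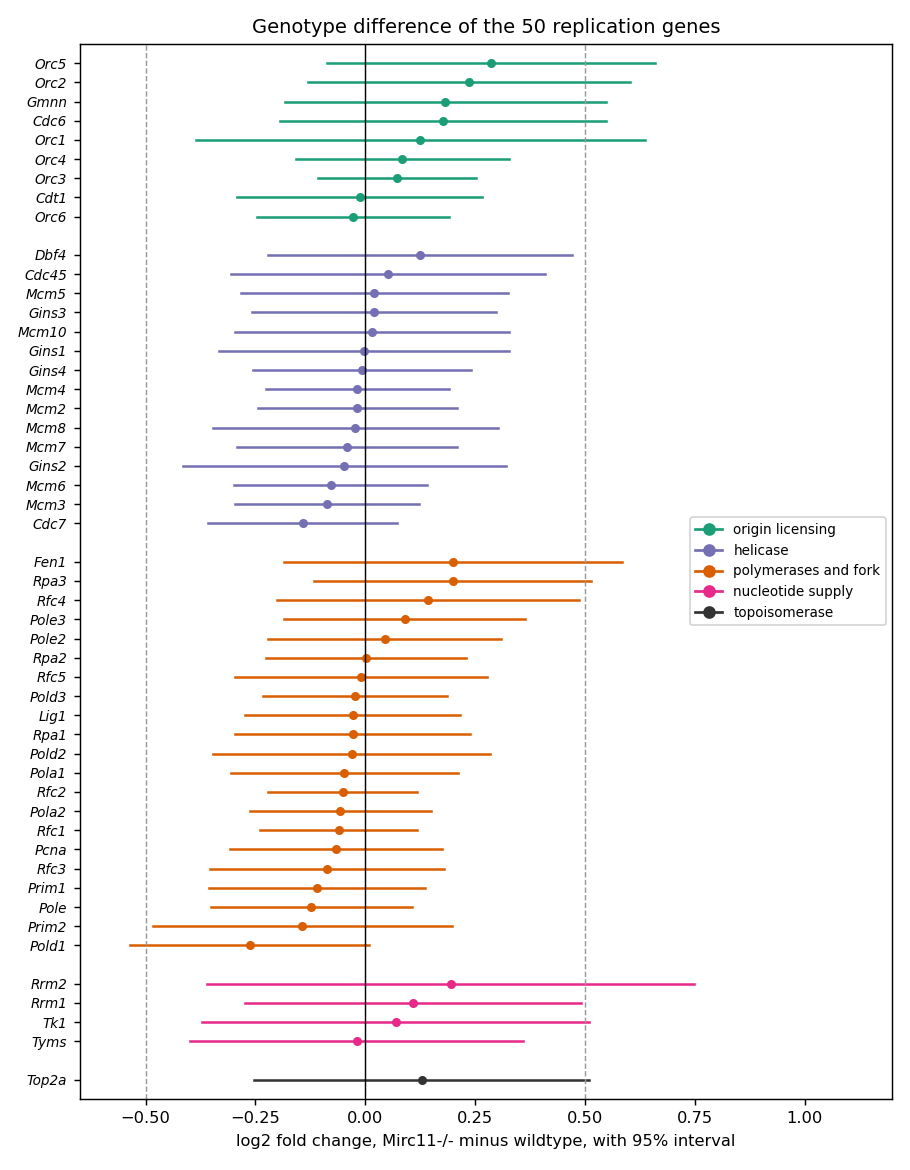
Log2 fold change (Mirc11-/- minus wildtype, limma on log2 of the normalized count plus 1) of the 50 replication genes on the horizontal axis, grouped and coloured by role, points with 95% intervals from 3 libraries per genotype, and dashed lines at -0.5 and 0.5. Every interval crosses 0, and Pold1 at -0.26 and Orc5 at 0.29 are the outermost points.

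Levels per length were highest for Pcna, followed by the 6 genes of the Mcm ring and 4 other members among them. Normalized counts were divided by the length of the longest coding transcript of each gene, and in wildtype (mean ± SD, n = 3) the sliding clamp Pcna led with 4226 ± 470.1 per kb. The Mcm ring was next, with Mcm3 at 2609 ± 249, Mcm6 at 2561 ± 287, Mcm7 at 2522 ± 334, Mcm5 at 2347 ± 335, Mcm2 at 1958 ± 174 and Mcm4 at 1461 ± 87.1 per kb. Top2a, the topoisomerase that untangles replicated chromosomes, stood among them at 2269.5 ± 294 per kb, and Rrm1, the large subunit of ribonucleotide reductase, at 1897 ± 311. The ligase gene Lig1 at 1545 ± 182 and the small reductase subunit gene Rrm2 at 1507 ± 164 per kb stood above Mcm4. For scale, Actb was at 14981.5 ± 212 and Gapdh at 4250.5 ± 255 per kb in these libraries.

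The loading factors, the helicase partners and Mcm8 and Mcm10 had lower wildtype means than each of the 6 ring genes. Orc1, the ORC subunit whose amount cycles, was the lowest member at 119 ± 26.2 per kb, and the other ORC subunits ran from Orc4 at 203 ± 24.3 to Orc3 at 802 ± 29.3 per kb. Cdt1 and Gmnn, the licensing factor and its inhibitor, lay side by side at 1037 ± 124 and 1026 ± 182 per kb. The helicase partners Cdc45 and Gins1 to Gins4 ranged from 170.25 ± 13 per kb for Gins3 to 660.2 ± 68.2 for Gins4, and Mcm8 and Mcm10, which are not part of the ring, were at 167 ± 12.8 and 311 ± 41.8. In the order of the 50 wildtype means, the wildtype ranges of 45 of the 49 neighbouring pairs overlapped, so most neighbours do not differ beyond their spread. Transcript length stands in here for the isoforms the cells used, which were not measured.

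**Figure D2:**
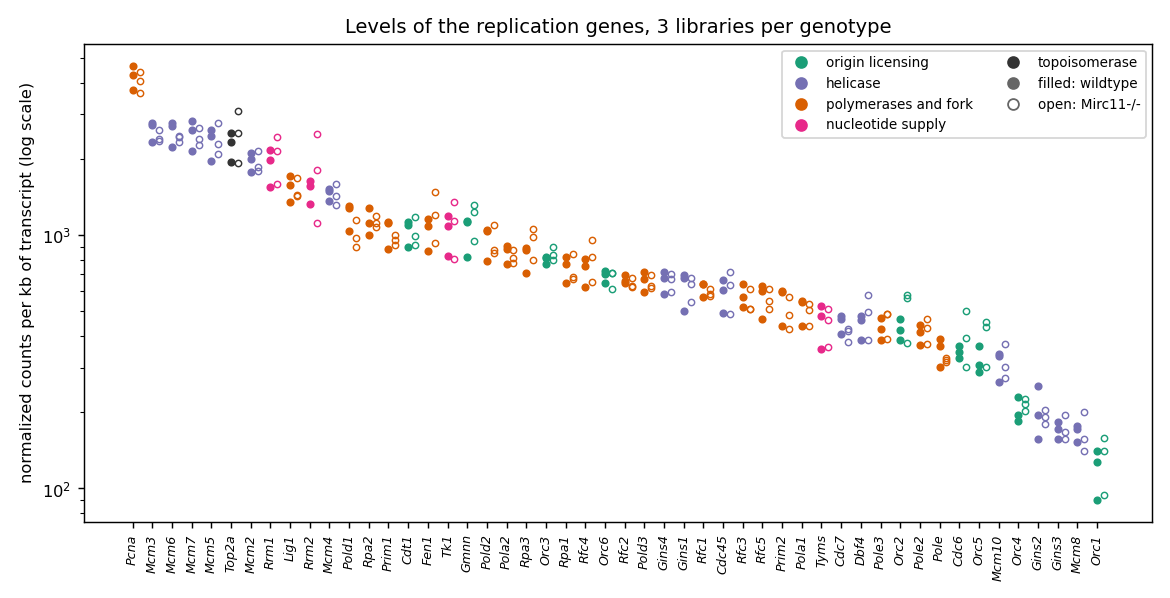
Normalized counts per kb of transcript (log scale) of the 50 replication genes, ordered by their wildtype mean, with 3 filled points for wildtype libraries and 3 open points for Mirc11-/- libraries per gene, coloured by role. Pcna at 4226 per kb leads in wildtype, the Mcm ring is among the 11 highest members, and Orc1 at 119 is lowest.

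Promoters were searched because the values of these genes were high or low together across libraries. From 250 bases before to 50 after the RefSeq start sites (GRCm38.p6), both strands were searched for the E2F words TTTCCCGC, TTTCGCGC, TTTGCCGC and TTTGGCGC, for CCAAT, the word read by NF-Y, and for TTTGAA or TTCGAA, the cell cycle homology region (CHR) words read by the DREAM complex, and on opposite strands the E2F words can overlap each other. An E2F word was present in 16 of the 42 members with a promoter entry (38.1%), in 4.34% of the 11290 tested genes with an entry and in 2.26% of all promoters. By role, E2F words were found in 4 of 8 licensing genes, 6 of 11 helicase genes, 6 of 18 polymerase and fork genes, 0 of 4 nucleotide supply genes and not in Top2a. CCAAT was present in 25 of 42 members (59.5%) beside 42.2% of tested genes and 37.4% of all promoters, and a CHR word in 10 of 42 (23.8%) beside 16.4% and 19.2%. Among 15 mitotic genes with an entry, 11 held a CHR word and 1 an E2F word. No entry was at hand for Gmnn, Gins1, Gins2, Gins4, Mcm4, Pole, Prim2 and Rfc2.

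The promoters of 3 members with E2F words from the 2 roles where they were most frequent, and of Top2a, which has none, are given here from position -170 to 10 around the start site, 5′ to 3′ on the strand of the gene. Mcm6 is at chr1:128359696-128359875 (minus strand), Mcm5 at chr8:75109339-75109518 (plus), Orc1 at chr4:108579284-108579463 (plus) and Top2a at chr11:99024180-99024359 (minus). Capitals mark E2F words on either strand in the first 3 sequences, and CCAAT and CHR words on either strand in Top2a.
Mcm6: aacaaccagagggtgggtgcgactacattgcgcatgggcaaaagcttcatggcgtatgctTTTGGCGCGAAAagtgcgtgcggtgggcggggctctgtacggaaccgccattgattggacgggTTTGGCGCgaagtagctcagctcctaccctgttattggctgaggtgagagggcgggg
Mcm5: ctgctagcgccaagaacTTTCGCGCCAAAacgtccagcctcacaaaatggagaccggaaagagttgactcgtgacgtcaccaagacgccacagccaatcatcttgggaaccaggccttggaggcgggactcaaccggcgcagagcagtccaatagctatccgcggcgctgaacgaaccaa
Orc1: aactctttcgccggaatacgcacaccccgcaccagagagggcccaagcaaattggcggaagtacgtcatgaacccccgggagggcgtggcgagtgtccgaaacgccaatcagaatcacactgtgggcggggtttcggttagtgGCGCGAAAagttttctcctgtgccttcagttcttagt
Top2a: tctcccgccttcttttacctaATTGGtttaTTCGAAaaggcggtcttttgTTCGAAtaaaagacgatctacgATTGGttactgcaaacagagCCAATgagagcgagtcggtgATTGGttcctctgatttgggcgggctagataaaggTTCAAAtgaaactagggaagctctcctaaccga

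In Mcm6 and Mcm5, E2F words of opposite strands share 4 bases, so that 12 bases in capitals hold a pair of words, and Mcm6 has a further word nearer the start. The word of Orc1 begins 27 bases before its start site. The Top2a window holds CCAAT on both strands and CHR words that begin 140, 120 and 23 bases before the start. Members with an E2F word had a median log2 fold change between genotypes of -0.024 (16 genes, 6 above 0) and those with an entry but no word 0.033 (26 genes, 15 above 0). A word match is a description of the letters, and binding was not measured.

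**Figure D3:**
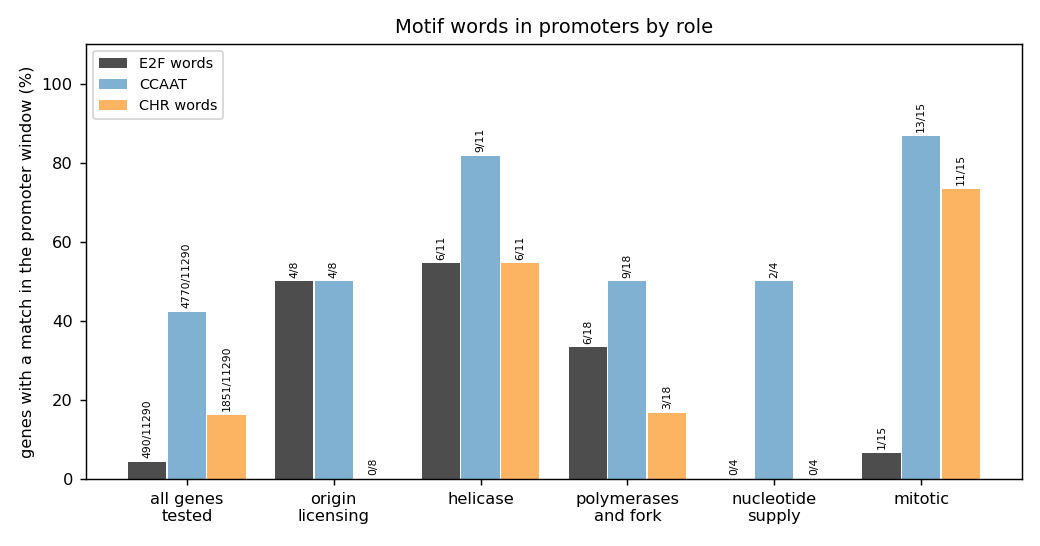
Percent of genes with at least 1 match in the promoter window (vertical axis) for E2F, CCAAT and CHR words in all tested genes, 4 replication roles and the mitotic genes, with genes matched over genes with a promoter entry above each bar. E2F words are found in 6 of 11 helicase and 4 of 8 licensing genes, 4.34% of all tested genes and 6.67% of mitotic genes.

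Origin licensing genes had a median log2 fold change of 0.13, with 7 of 9 above 0 and none past the test. Orc5, an ATP-binding ORC subunit, had 767, 607 and 647 normalized counts in wildtype and 951, 909.7 and 632 in Mirc11-/-. Both Mirc11-/- 1 and 2 were above all wildtype libraries, and Mirc11-/- 3 lay inside the wildtype range. Its log2 fold change of 0.29 ± 0.16 (SE), a 95% interval of -0.088 to 0.66 and an adjusted p of 0.643 came from limma. Orc2, another core ORC subunit, had 1656, 1503 and 1375 normalized counts in wildtype and 2072, 2008 and 1341 in Mirc11-/-, with Mirc11-/- 3 the lowest of the 6. The log2 fold change of 0.24 ± 0.16 (SE), a 95% interval of -0.13 to 0.60 and an adjusted p of 0.695 left it within the spread of the libraries.

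Orc4 was measured at 748, 792 and 937 normalized counts in wildtype and 874, 920.1 and 824 in Mirc11-/-, and here wildtype 3 was the highest library. Its log2 fold change was 0.085 with an adjusted p of 0.845. Orc1 had 424, 384 and 272 normalized counts in wildtype and 479, 423 and 284 in Mirc11-/-, a pattern of low values in library 3 of both genotypes, and a log2 fold change of 0.13 ± 0.23 (SE), a 95% interval of -0.39 to 0.64 and an adjusted p of 0.9. Cdt1, the most abundant licensing gene by count, had 2393, 2458 and 1958 normalized counts in wildtype and 2590.4, 2168 and 1995 in Mirc11-/-, and the genotypes overlapped throughout with a log2 fold change of -0.013. Cdc6, the ATPase that brings Cdt1 and the Mcm ring to ORC, had a log2 fold change of 0.18, Gmnn 0.18, Orc3 0.072 and Orc6 -0.029, all with overlapping groups. Orc6 lies on the chromosome of the deleted cluster, 1.09 Mb from Mir23a, and had 1062, 1029 and 946 normalized counts in wildtype and 1041, 1043 and 898 in Mirc11-/-.

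The helicase genes had a median log2 fold change of -0.018, with 5 of 15 above 0, and the 95% interval lay between -0.5 and 0.5 in all 15. Mcm6, the most abundant ring gene by count, had 12014, 11728.5 and 9718 normalized counts in wildtype and 10749, 10187 and 10608 in Mirc11-/-. The Mirc11-/- libraries lay inside the wildtype range, with a log2 fold change of -0.079 ± 0.10 (SE), a 95% interval of -0.30 to 0.14 and an adjusted p of 0.835. Mcm3 had 8429.6, 8249 and 7042 normalized counts in wildtype and 7892, 7283 and 7106 in Mirc11-/-, where library 3 of each genotype was the lowest of its group, and a log2 fold change of -0.087 ± 0.092 (SE), a 95% interval of -0.30 to 0.12 and an adjusted p of 0.807. Over Mcm2 to Mcm7 the median was -0.030, and the outermost bounds of the 6 intervals were -0.30 and 0.32.

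Cdc7, the kinase that fires origins, had 1505, 1455 and 1273 normalized counts in wildtype and 1307, 1185 and 1337 in Mirc11-/-. Mirc11-/- 2 was the lowest of the 6 libraries, and wildtype 3 lay below 2 of the Mirc11-/- libraries. Its log2 fold change of -0.14 ± 0.095 (SE), a 95% interval of -0.36 to 0.072 and an adjusted p of 0.686 made it the helicase gene with the smallest p. Dbf4, its activator, had a log2 fold change of 0.12. Gins3 had 433, 459 and 394 normalized counts in wildtype and 492, 419.55 and 396 in Mirc11-/-, with a log2 fold change of 0.020. The median over Cdc45 and Gins1 to Gins4 was -0.0030, and their values overlapped between genotypes in all 5.

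The polymerase and fork genes had a median log2 fold change of -0.031, with 6 of 21 above 0. Pold1 had 4512, 4429 and 3585 normalized counts in wildtype and 3970.2, 3111 and 3356 in Mirc11-/-. Wildtype 1 and 2 were above all Mirc11-/- libraries and wildtype 3 fell between them, so the groups overlapped. The log2 fold change of -0.26 ± 0.12 (SE), a 95% interval of -0.54 to 0.0093 and an adjusted p of 0.601 gave the smallest p of the 50 members. Pold2, the small subunit of the same enzyme, had 1728, 1708 and 1304 normalized counts in wildtype and 1804, 1436 and 1393 in Mirc11-/-, where Mirc11-/- 1 was the highest and wildtype 3 the lowest library. Its log2 fold change was -0.031 with an interval of -0.35 to 0.28, and that of Pold3, a further subunit, was -0.024.

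Pole, the catalytic subunit of polymerase epsilon, had 2782, 2619 and 2162 normalized counts in wildtype and 2355, 2298 and 2253 in Mirc11-/-, with a narrow Mirc11-/- group inside the wildtype range. The log2 fold change of Pole was -0.12, that of Pole2 0.044 and that of Pole3, a histone-fold subunit with 847, 768 and 693 normalized counts in wildtype and 878, 879 and 704 in Mirc11-/-, 0.089. Primase is made of Prim1, which joins the first ribonucleotides, and Prim2. Prim1 had 1788, 1759.6 and 1395 normalized counts in wildtype and 1589.8, 1512 and 1453 in Mirc11-/-, and Prim2 had 1187, 1176 and 866 normalized counts in wildtype and 1122, 952 and 839 in Mirc11-/-. Their log2 fold changes were -0.11 and -0.14 with adjusted p of 0.793 and 0.806, and in both wildtype 1 and 2 lay above all Mirc11-/- libraries, while wildtype 3 was the lowest of the 6 in Prim1 and lay above Mirc11-/- 3 alone in Prim2. Their partners Pola1 and Pola2 had log2 fold changes of -0.048 and -0.057.

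Pcna had 7076, 6512 and 5658 normalized counts in wildtype and 6667, 6169 and 5519 in Mirc11-/-, with overlapping groups and a log2 fold change of -0.067 ± 0.11 (SE), a 95% interval of -0.31 to 0.17 and an adjusted p of 0.882. Of its loader, Rfc3 had 847, 753 and 687 normalized counts in wildtype and 810.5, 671 and 672 in Mirc11-/- and a log2 fold change of -0.087, and over Rfc1 to Rfc5 the median was -0.052 with all 5 intervals between -0.5 and 0.5. Rpa3, the smallest subunit of the single-strand binding protein RPA, had 595, 585 and 475 normalized counts in wildtype and 710.3, 658 and 534 in Mirc11-/-. Mirc11-/- 1 and 2 were above all wildtype libraries and Mirc11-/- 3 inside their range, with a log2 fold change of 0.20 ± 0.14 (SE), a 95% interval of -0.12 to 0.51 and an adjusted p of 0.701, while the other subunits Rpa1 and Rpa2 had log2 fold changes of -0.029 and 0.00093. Fen1, which trims Okazaki fragment flaps, had a log2 fold change of 0.20, and Lig1, which seals the fragments, one of -0.029, both with overlapping groups.

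Nucleotide supply genes had a median log2 fold change of 0.089 with 3 of 4 above 0, and a median ratio of the highest to the lowest library of 1.41 within wildtype and 1.60 within Mirc11-/-, against 1.25 and 1.25 over all members. Rrm2, the S phase subunit of ribonucleotide reductase, had 3579.7, 3438 and 2898 normalized counts in wildtype and 5486, 3965 and 2454 in Mirc11-/-. The Mirc11-/- libraries bracketed the wildtype ones, since Mirc11-/- 1 was the highest and Mirc11-/- 3 the lowest of the 6, a ratio of 2.24 within the genotype against 1.24 within wildtype. The log2 fold change of 0.19 ± 0.24 (SE), a 95% interval of -0.36 to 0.75 and an adjusted p of 0.843 is the widest interval toward higher levels among the members. Rrm1 had 8623, 7915 and 6206 normalized counts in wildtype and 9713, 8587 and 6373 in Mirc11-/- and Tyms, thymidylate synthase, had 1654, 1521 and 1121 normalized counts in wildtype and 1612, 1461 and 1148 in Mirc11-/-. Library 3 was the lowest of its genotype in both, with log2 fold changes of 0.11 and -0.020, and that of Tk1, thymidine kinase, was 0.069. Top2a had 12202, 13179 and 10166 normalized counts in wildtype and 16117, 13199 and 10046 in Mirc11-/-, with Mirc11-/- 1 highest and Mirc11-/- 3 lowest, and a log2 fold change of 0.13 ± 0.17 (SE), a 95% interval of -0.25 to 0.51 and an adjusted p of 0.851.

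Differences between libraries of a genotype were shared by nearly the whole machinery. Wildtype 3 was the lowest wildtype library in 48 of 50 members (96%), against 37.0% of all genes tested and 48.4% of the genes with a mean of at least 1000. Mirc11-/- 1 was the highest Mirc11-/- library in 44 of 50 (88%; 37.6% and 52.2%) and Mirc11-/- 3 the lowest in 45 of 50 (90%; 38.4% and 50.8%). Relative to the wildtype mean of each gene, the median member stood at 0.12, 0.065 and -0.19 on the log2 scale in wildtype 1 to 3 and at 0.15, -0.024 and -0.15 in Mirc11-/- 1 to 3. The 50 genes took 0.956%, 0.914% and 0.769% of the reads in wildtype 1 to 3 and 0.987%, 0.898% and 0.815% in Mirc11-/- 1 to 3. These shares overlapped between the genotypes.

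**Figure D4:**
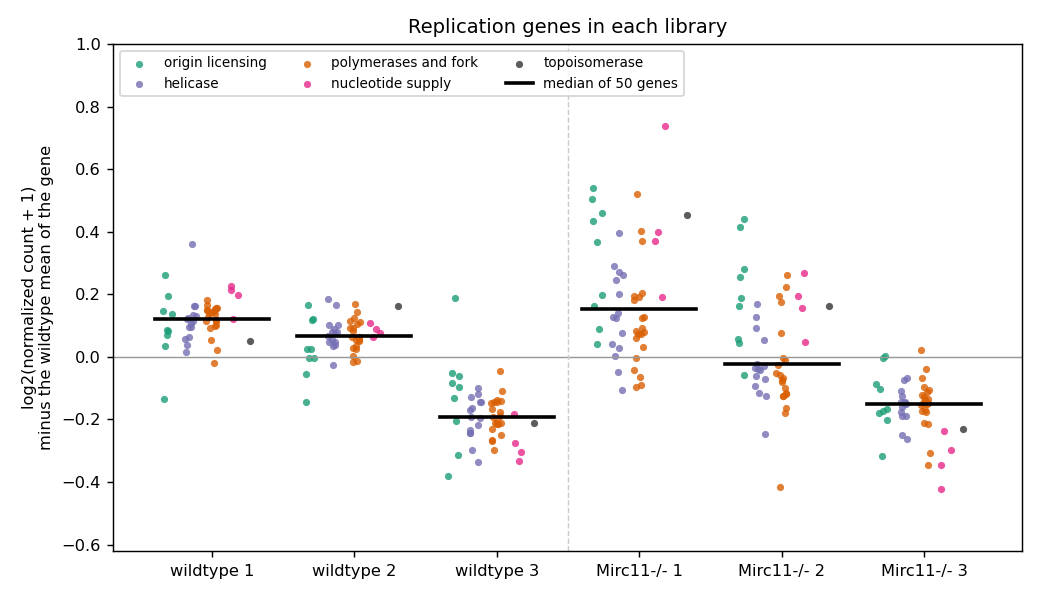
Log2 of the normalized count plus 1 minus the wildtype mean of the gene (vertical axis) for each of the 50 replication genes in each library, coloured by role, with black bars at the median of the 50 genes. Medians are 0.12, 0.065 and -0.19 in wildtype 1 to 3 and 0.15, -0.024 and -0.15 in Mirc11-/- 1 to 3, and wildtype 3 and Mirc11-/- 3 sit low as a whole.

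The roles stood at different medians within Mirc11-/- 1 and 2, and also within wildtype libraries. In Mirc11-/- 1 the median was 0.37 for licensing, 0.38 for nucleotide supply and 0.45 for Top2a, but 0.13 for helicase and 0.081 for polymerase and fork genes. In Mirc11-/- 2 the same roles stood at 0.19, 0.17, 0.16, -0.040 and -0.068. In Mirc11-/- 3 all were below 0, from -0.32 for nucleotide supply to -0.15 and -0.15 for helicase and for polymerase and fork genes. In wildtype 1 to 3 the medians were 0.085, 0.025 and -0.096 for licensing and 0.11, 0.074 and -0.19 for helicase genes. They were 0.14, 0.065 and -0.19 for polymerase and fork genes, 0.21, 0.082 and -0.29 for nucleotide supply and 0.051, 0.16 and -0.21 for Top2a. Values are relative to the wildtype mean of each gene, which draws wildtype medians toward 0. These are descriptions of single libraries, and the roles were not tested against each other.

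Among markers of other cells, the erythroid list fell in order from library 1 to 3 in both genotypes, as the replication medians did. The 18 erythroid markers tested, among them Car2 and Tfrc as the most abundant, stood at 1.37, 1.29 and -0.15 in Mirc11-/- 1 to 3 and at 0.46, -0.087 and -0.33 in wildtype 1 to 3 (list medians on the log2 scale, relative to wildtype). Of them, 7 of 18 had an unadjusted limma p under 0.05 with a higher level in Mirc11-/-, beside 4.15% of all genes. The list was chosen with earlier results of these data known, so this count is a description only. The 13 LSK markers, led by Cd34 and Flt3, rose in order in Mirc11-/- 1 to 3, with -0.60, -0.20 and 0.17. In wildtype 1 to 3 they stood at -0.076, -0.13 and 0.21, highest in library 3 but lower in library 2 than in library 1. Wildtype 3 and Mirc11-/- 3 thus had the lowest replication medians and the highest LSK marker medians of their genotypes. The list medians of the 14 neutrophil markers did not follow the order of the replication medians. They were 0.27, 0.51 and 0.40 in Mirc11-/- 1 to 3 and 0.16, -0.16 and -0.10 in wildtype 1 to 3. The summed level of these markers, most of it from Mpo, was 206634, 210977 and 174571 normalized counts in wildtype 1 to 3. It was 244653, 194441 and 150632 in Mirc11-/- 1 to 3. The sum, unlike the list median, was thus lowest in library 3 of both genotypes and fell in order in Mirc11-/-. By marker, library 3 was the lowest of its genotype in 5 of 14 in wildtype and 7 of 14 in Mirc11-/-. The mast and basophil, megakaryocyte, B lineage and T lineage marker lists had medians of 0.33, 0.18, 0.62 and -0.087 between genotypes, with 8, 9, 10 and 6 genes tested. Tpsb2 and Mcpt4, which mark mature mast cells, were at 0 in all 6 libraries, and Cd3e of mature T cells had a mean of 0.493. The part of these cells in the levels of the replication genes was not tested.

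**Figure D5:**
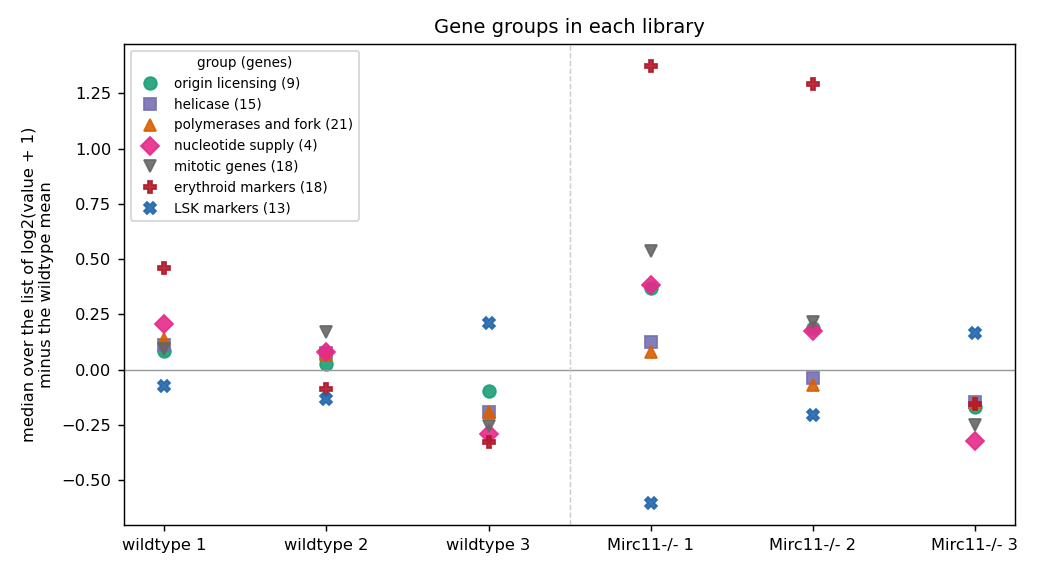
Median over each gene group of log2(normalized count plus 1) minus the wildtype mean (vertical axis) in the 6 libraries, for 4 replication roles, mitotic genes, erythroid markers and LSK markers, with the number of genes in brackets. Mitotic genes, like the replication roles, are lowest in library 3 of each genotype and, among Mirc11-/- libraries, highest in Mirc11-/- 1. Their medians are 0.54 in Mirc11-/- 1 and -0.25 in Mirc11-/- 3. In Mirc11-/- 2 they stand at 0.22, against -0.040 for helicase genes and -0.068 for polymerase and fork genes. The erythroid markers reach 1.37 and 1.29 in Mirc11-/- 1 and 2, and the LSK markers stand at -0.60 in Mirc11-/- 1.

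The direction over the members depended on the library left out. Without Mirc11-/- 3 the median log2 fold change was 0.065, 39 of 50 were above 0, and 10 members had an unadjusted p under 0.05 with a higher level in Mirc11-/- (9.81% of all genes in that fit). These 10 were Orc2, Orc5, Cdc6, Gmnn, Dbf4, Rfc4, Rpa3, Fen1, Rrm2 and Top2a, with log2 fold changes of 0.50 for Rrm2, 0.47 for Orc5 and 0.44 for Orc2, and 0 had an adjusted limma p under 0.05, while 2.75% of all genes did. Orc2 had the smallest adjusted limma p of the members in that fit, 0.05004, just above the threshold. Without wildtype 3 the median was -0.092 and 4 members, Cdc7, Prim1, Pold1 and Pole, were lower at an unadjusted p under 0.05 (3.56% of all genes in that fit). Without Mirc11-/- 1 it was -0.083, with Pold1 alone lower (3.74% of all genes). With the erythroid marker level as a covariate, the median was -0.16, 2 of 50 members were above 0, and 6 members, Pold1, Prim2, Pcna, Rrm2, Tyms and Tk1, were lower at an unadjusted p under 0.05 (4.6% of all genes), 0 of them after adjustment. This covariate goes in part with genotype, since all 18 erythroid markers had a log2 fold change above 0 (median 0.82). How the change divides between the 2 was not tested. Array weights in limma, whose estimate did not converge, gave Mirc11-/- 2 a weight of 23.9, and 14 of 50 members then passed, beside 36.2% of all genes.

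Genes of the process outside the 50 were counted next. Of 30 further replication genes tested, such as the FACT subunit Ssrp1, the median log2 fold change was -0.021 and 0 passed in limma, edgeR or DESeq2. At an unadjusted limma p under 0.05, 2 of the 30 were higher, beside 4.15% of all genes. Rif1, which controls origin timing, had 2589.6, 2484 and 2839 normalized counts in wildtype and 3279.8, 3137 and 2902 in Mirc11-/-. All 3 Mirc11-/- libraries were above all wildtype ones, as in 6.42% of all genes. Its log2 fold change was 0.24 ± 0.084 (SE), with a 95% interval of 0.045 to 0.43 and an adjusted limma p of 0.524. Dna2, a nuclease and helicase of Okazaki fragment processing, had 1410.2, 1341 and 1106.5 normalized counts in wildtype and 1917, 1626 and 1331 in Mirc11-/-, with overlapping groups and a log2 fold change of 0.33, and Top1, the topoisomerase that relieves twist ahead of the fork, had one of 0.20.

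Of 19 further nucleotide supply genes, 0 passed in limma, edgeR or DESeq2. At an unadjusted limma p under 0.05, 2 of the 19 were lower, beside 4.09% of all genes. Shmt1, the cytosolic serine hydroxymethyltransferase that feeds thymidylate synthesis, had 1242, 1275 and 961 normalized counts in wildtype and 923, 851 and 1018 in Mirc11-/- and a log2 fold change of -0.31 with an adjusted limma p of 0.573. Impdh1, which commits inosine monophosphate to guanine nucleotides, had 3113, 3201 and 2972 normalized counts in wildtype and 2774, 2399 and 2882 in Mirc11-/-. It was lower in all 3 Mirc11-/- libraries than in any wildtype library, as were 6.53% of all genes. Its log2 fold change was -0.21 ± 0.089 (SE), with a 95% interval of -0.41 to -0.0080 and an adjusted limma p of 0.592. Ctps2, a CTP synthase, had a log2 fold change of -0.18.

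Of 18 E2F targets outside replication, 0 passed in limma, edgeR or DESeq2, 0 had an unadjusted limma p under 0.05 and the median was -0.0071. Ccne1 and Ccne2 encode E-type cyclins, which drive entry into S phase. Ccne1 had 786, 544 and 499 normalized counts in wildtype and 1334, 1193 and 533 in Mirc11-/-, high in Mirc11-/- 1 and 2 and within the wildtype range in Mirc11-/- 3, with a log2 fold change of 0.66 ± 0.32 (SE), a 95% interval of -0.066 to 1.39 and an adjusted p of 0.617. The log2 fold change was 0.31 for Ccne2 and -0.22 for E2f7, an E2F repressor, neither past the test.

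Among 18 mitotic genes the median was 0.15, all 18 were above 0, 0 passed in limma, edgeR or DESeq2 and 0 had an unadjusted limma p under 0.05, at a median SE of 0.20. Mki67, the gene of the Ki-67 antigen of cycling cells, had 10979, 11456 and 8753 normalized counts in wildtype and 17161, 13761 and 8874 in Mirc11-/-, with a log2 fold change of 0.31 ± 0.22 (SE), a 95% interval of -0.18 to 0.80 and an adjusted p of 0.701. The cyclin gene Ccna2 had a log2 fold change of 0.27 and Ube2c, of the anaphase-promoting complex pathway, 0.25. In all 18 mitotic genes wildtype 3 was the lowest wildtype library, Mirc11-/- 1 the highest and Mirc11-/- 3 the lowest Mirc11-/- library, as in most replication genes, and the list median was 0.54, 0.22 and -0.25 in Mirc11-/- 1 to 3.

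The deleted miRNAs pair with mRNAs through bases 2 to 8, the seed. Their mature sequences (RefSeq, GRCm38.p6, chromosome 8, plus strand) are given with the seed in capitals, because targets are recognized through the reverse complement of a seed. The seeds of miR-23a and miR-27a differ from each other and from that of miR-24, so the 3 form 3 seed groups. The related cluster Mirc22 encodes miR-23b, miR-27b and miR-24-1, which share these seeds.
miR-23a-3p: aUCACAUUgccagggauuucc
miR-27a-3p: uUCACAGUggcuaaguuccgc
miR-24-3p: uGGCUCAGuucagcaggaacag

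A smaller share of replication genes than of tested genes held a match to these seeds, but their annotated regions were shorter. Per kb, members were above tested genes for miR-27a and below them for miR-23a and miR-24. In the annotated 3′ untranslated regions of GENCODE M21, the 7-base match to miR-23a (AATGTGA) was found in 4 of 50 members (8%) beside 15.9% of tested genes, that to miR-27a (ACTGTGA) in 7 of 50 (14%) beside 16.8% and that to miR-24 (CTGAGCC) in 4 of 50 (8%) beside 18.6%. Any of the 3 was found in 14 of 50 members (28%) and in 39.5% of tested genes, and the median region was 599 bases long in members and 1100 over all genes. Per kb of region, members held 0.085, 0.15 and 0.11 matches to the 3 seeds and tested genes 0.12, 0.13 and 0.15.

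Sites are shown for the 5 genes named above by the naming rule that hold a match, with the match in capitals, 5′ to 3′.
Orc2, miR-23a: catctgattatagAATGTGAc
Orc5, miR-27a: aagccatatggacACTGTGAc
Mcm6, miR-27a: gacattgtgtctcACTGTGAa
Rrm2, miR-27a: cctgaggtagtttACTGTGAt
Cdc7, miR-24: aggagcaaccttaCTGAGCCt

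Mcm6 held the single 8-base match, in which an A follows the 7 bases, and its log2 fold change was -0.079. Orc5 and Orc2, the licensing genes with the highest log2 fold changes of 0.29 and 0.24, each held a 7-base match, and Rrm2 and Cdc7 had log2 fold changes of 0.19 and -0.14. The 14 members with a match had a median log2 fold change of 0.018 (8 above 0, range -0.14 to 0.29) and the 36 without one -0.017 (14 above 0, range -0.26 to 0.20). Over all tested genes with an annotated region the medians were 0.021 with a match and -0.0064 without. A seed match is a description of the letters, and no member with one passed the test.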

How the data were processed

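RNA-seq was compared between 3 wildtype and 3 Mirc11-/- LSK libraries, grouped by their labels. STAR, Cufflinks and mm10 are named in the processing notes of the submitters. Although the deposited table carries FPKM in its name, it holds a signal that the authors made as reads per gene divided by a library size factor: on each column's own step, 100% of values were whole reads within 0.001. A supplementary method of the study names a human build, which the mouse symbols of the table do not bear out. The members and all gene lists were chosen with earlier results of these data known.

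Testing covered the 15662 genes whose mean reached 1, with limma 3.58.1 (trend; log2 of the value plus a pseudocount of 1) and Benjamini-Hochberg adjustment at 0.05, so fold changes of low genes are understated. The recovered reads were also tested with edgeR 4.0.16 (quasi-likelihood) and DESeq2 1.42.0 in R 4.3.3. All 3 were checked on simulated data. With 3 libraries per genotype an exact permutation test cannot go below p = 0.1. p-values measure the spread between RNA preparations. Replication genes described with values per library are, in each role, those past the threshold in any fit, the 2 with the smallest p, and the highest and lowest in wildtype; of each further list, the 3 with the smallest p. Identical table rows of globin genes were counted once. Depth was 15029379 to 17051541 reads in genes. Alternatives were other pseudocounts, filters, normalizations and tools, array weights, a replicate block, an erythroid covariate and each library left out. Transcript lengths and 3′ untranslated regions came from GENCODE M21 and promoters and miRNAs from RefSeq GRCm38.p6, the build that mm10 denotes.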

Additional observations from a re-analysis of the deposited data

How the results depend on the processing

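The count of members past the threshold was 0 in every fit run except limma with array weights (14). Without Mirc11-/- 3 this 0 was narrow, as the adjusted limma p of Orc2 was 0.05004. Over all genes the count moved from 5 to 5677 with array weights, 30 with the replicate block and 122 with DESeq2, and to 1 to 430 when 1 library was left out. Of the 50 members, those lower at an unadjusted p under 0.05 numbered 1 with quantile normalization (4.25% of all genes), 14 with array weights (23.2%), 1 with the replicate block (6.01%), 6 with the erythroid covariate (4.6%) and 0 to 4 with 1 library left out (3.56% where 4, without wildtype 3). Members higher numbered 9 with array weights (23.9%), 4 with the replicate block (6.24%) and 0 to 10 with 1 library left out (9.81% where 10, without Mirc11-/- 3). Same-numbered libraries correlated in their deviations from the genotype means at r = 0.14, -0.20 and 0.20 over 13201 genes and 0.27, -0.15 and 0.30 over the members, for numbers 1 to 3. Wildtype 1 and wildtype 3 each correlated best with the Mirc11-/- library of the same number, but wildtype 2 with Mirc11-/- 1 (r = 0.20 over these genes, 0.21 over the members). As number 2 was negative, the numbers were not taken as pairs, and an effect shared by libraries of a number was not tested. The block changed no call of a member. The median log2 fold change over members ran from -0.092 (without wildtype 3) to 0.065 (without Mirc11-/- 3) with 1 library left out, and was -0.16 with the erythroid covariate.

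For the 22 members named by rule, 350 of 396 values under alternatives kept direction and side of the threshold, 14 passed it under array weights and 32 changed sign. The rule names every member past the threshold in any fit, and array weights was the only fit with such members. The 14 thus follow from the rule. With the erythroid covariate, log2 fold changes became -0.035 for Orc5, -0.097 for Orc2, -0.30 for Orc1, -0.10 for Gins3, -0.022 for Rpa3, -0.11 for Pole3, -0.33 for Rrm2, -0.22 for Rrm1 and -0.18 for Top2a. Mcm6 became 0.038 with quantile normalization and Gins3 -0.078 with array weights. With 1 library left out, the ranges that crossed 0 were -0.065 to 0.35 for Orc1, -0.12 to 0.070 for Cdt1, -0.069 to 0.086 for Gins3, -0.15 to 0.0071 for Pcna, -0.16 to 0.040 for Pold2, -0.077 to 0.50 for Rrm2, -0.028 to 0.28 for Rrm1, -0.19 to 0.12 for Tyms and -0.033 to 0.31 for Top2a. The cause of these changes was not tested.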
